A study of Mus musculus with 16 samples.

Results

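The unfolded protein response and the integrated stress response were followed through 32 genes in mouse gonadal fat cells. The genes were chosen by name, and all 32 were found among the 54532 gene rows of the deposited read count table. They matched 33 rows, since Ddit3 had a second identifier, ENSMUSG00000116429, which lies within the first and had no read in any library. All 32 members passed the filter on low counts in every comparison. They were read in 5 roles: 11 chaperones of the endoplasmic reticulum (ER), 4 disulfide isomerases, 7 genes of ER-associated degradation, 4 stress sensors and transcription factors, and 6 effectors of the integrated stress response.

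Each library was bulk RNA of 1 cell fraction of gonadal white fat, taken from female mice of the C57BL/6 strain. Control pups stayed undisturbed with the dam until weaning on postnatal day 21. Pups of the early life stress groups underwent maternal separation and early weaning (MSEW): they were separated daily from postnatal day 2 to 16 and weaned on day 17. Tissue was digested with collagenase, separated by centrifugation and filtration, and sorted with magnetic beads into preadipocytes and mature adipocytes. High-fat feeding gave 8 preadipocyte libraries, 4 per early life group, and 6 adipocyte libraries, 3 per group. Low-fat feeding gave 2 preadipocyte libraries, 1 per group. The sorting antigen, the diets' make-up and length and the age at collection are not stated in the labels.

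Protein entering the ER folds with the help of chaperones and disulfide isomerases, and protein that fails to fold is retrotranslocated and degraded. The unfolded protein response matches this capacity to the load through the membrane sensors IRE1 (Ern1), PERK (Eif2ak3) and ATF6. IRE1 splices Xbp1 mRNA, ATF6 is cleaved to a transcription factor, and PERK phosphorylates the translation factor eIF2. Phosphorylated eIF2 favours translation of ATF4, and this arm, which other kinases also trigger during amino acid shortage, viral infection or haem shortage, is the integrated stress response. Adipocytes and fibroblast-like progenitors both secrete much protein, the former adipokines and the latter collagen and other matrix. Counts per gene hold no splicing, cleavage or phosphorylation, so none of these activating steps was measured.

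Libraries held 14182130 to 23368821 counted reads. Preadipocyte libraries detected 23004 to 26053 genes and adipocyte libraries 15344 to 20964. Control adipocyte libraries 1 and 3 detected 18091 and 15344 genes, and stress adipocyte library 2 detected 18400. Control high-fat preadipocyte libraries 1 and 3 differed far less than any other pair within a group: 21.4% of genes differed at an unadjusted p below 0.05, against 50.5% to 79.5% in the other 17 pairs. They were summed and counted as 1 sample, which left 15 samples. No label ties a library to its own animal, and the p-values therefore speak only of the scatter among these samples, which may be technical. All 10 adipocyte markers were higher in the fraction labelled mature adipocyte and all 10 progenitor markers were lower. In bulk RNA, fewer cells of a type and less RNA per cell cannot be told apart.

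Promoter sequence is shown first, because the response's transcription factors are known to bind named elements and 14 of the 28 members with a window hold at least 1 of the 4 searched here. RefSeq windows of 300 bases (250 before the annotated start and 50 after, build GRCm38.p6) were found for 28 of the 32 members. Both strands were searched for the ER stress response element ERSE (CCAAT and CCACG with 9 bases of any kind between), the shorter ERSE-II (ATTGG and CCACG with 1 base between), the unfolded protein response element UPRE (TGACGTGG) and the C/EBP-ATF response element CARE (TGATGNAA). ERSE was found in 9 of the 28 members and in 0.119% of all 32851 windows. ERSE-II was found in 2 members, Dnajb11 and Herpud1, and in 0.0365% of windows. UPRE was found in 0 of the 28 members and in 0.676% of windows. CARE was found in 4 members, Trib3, Asns, Chac1 and Herpud1, and in 3.97% of windows. No match overlapped another in these windows. A match describes the letters only and shows no binding, and the lack of one says only that these letters are not in the window. The members were chosen by name as genes of this response, and the elements are known from it. The shares are therefore description, and a higher share than in all windows is not an independent result.

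By role, ERSE or ERSE-II stood in 7 of 9 chaperone windows, 1 of 4 disulfide isomerase windows, 3 of 6 degradation windows and 0 of 3 sensor windows. Among the 6 effectors of the integrated stress response, 0 had ERSE or ERSE-II and 3 had CARE. The following 30-base stretches show elements of some genes discussed below, 5′ to 3′ on the gene's strand, with the match in capitals. A match on the opposite strand reads as the reverse complement, as in Trib3. The Trib3 match lies after the annotated start, at bases 15 to 22, as does the ERSE-II of Dnajb11, at bases 8 to 18.
Hspa5, ERSE, chr2:34772020-34772049, plus strand: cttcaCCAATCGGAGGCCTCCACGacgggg
Hsp90b1, first ERSE, chr10:86705632-86705661, minus strand: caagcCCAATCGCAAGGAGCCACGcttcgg
Hsp90b1, second ERSE, chr10:86705527-86705556, minus strand: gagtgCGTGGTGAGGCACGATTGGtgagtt
Herpud1, ERSE-II, chr8:94386368-94386397, plus strand: cgggcgctgATTGGGCCACGttggacactg
Asns, CARE, chr6:7693214-7693243, minus strand: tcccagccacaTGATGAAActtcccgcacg
Trib3, CARE, chr2:152344028-152344057, minus strand: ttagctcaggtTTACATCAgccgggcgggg

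Derl3 and Chac1 had 2 of the 3 largest fraction differences among the members, and their upstream sequence is printed at length. Derl3 (ENSMUSG00000009092) lies on the plus strand of chromosome 10 at 75893413-75895941 and Chac1 (ENSMUSG00000027313) on the plus strand of chromosome 2 at 119351229-119354381. The Derl3 stretch covers chr10:75893148-75893397 and holds an ERSE on the minus strand, in capitals. The Chac1 stretch covers chr2:119350992-119351228 and holds a CARE on the minus strand, in capitals.
Derl3: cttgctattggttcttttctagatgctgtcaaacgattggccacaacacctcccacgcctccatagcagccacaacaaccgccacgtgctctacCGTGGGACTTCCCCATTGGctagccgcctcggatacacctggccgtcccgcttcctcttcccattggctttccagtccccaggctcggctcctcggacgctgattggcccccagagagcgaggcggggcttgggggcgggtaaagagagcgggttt
Chac1: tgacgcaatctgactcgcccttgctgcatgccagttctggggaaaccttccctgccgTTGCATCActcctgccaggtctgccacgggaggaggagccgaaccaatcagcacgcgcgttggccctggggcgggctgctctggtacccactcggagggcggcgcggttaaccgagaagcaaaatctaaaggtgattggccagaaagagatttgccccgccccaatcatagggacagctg

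Levels between genes were compared in deposited FPKM, which scale reads by gene length and library. In the 7 high-fat preadipocyte samples the highest member was Hspa5, at 361 ± 81.0 FPKM (mean ± SD), followed by Calr at 293 ± 33.3, P4hb at 270.4 ± 29.7 and Pdia3 at 212 ± 15.1. Hspa5 encodes BiP, the main ER chaperone, which also binds and restrains the sensors, and its range, 273 to 496, overlapped that of Calr, 247 to 327. The lowest were Asns at 4.88 ± 1.05, Chac1 at 3.42 ± 2.92, Trib3 at 2.17 ± 0.81 and Derl3 at 1.05 ± 0.27. In the 6 high-fat adipocyte samples Calr was highest at 394 ± 169 FPKM, followed by P4hb at 287 ± 81.6, Hspa5 at 172 ± 49.0 and Pdia3 at 141 ± 45.2. The lowest there were Trib3 at 6.19 ± 2.76, Eif2ak3 at 3.13 ± 0.79 and Ern1 at 2.25 ± 0.65. By FPKM, Asns ranked 29 of 32 in preadipocytes and 15 in adipocytes, and Derl1 ranked 16 and 5.

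Within one gene, samples were compared in CPM, reads scaled to library size after TMM normalisation. The ratio of the highest to the lowest sample had a median over members of 1.53 in preadipocytes and 2.63 in adipocytes. It exceeded 2 for 8 members in preadipocytes and for 27 in adipocytes. Chac1 spread most among preadipocytes, by 42-fold, and Derl3 most among adipocytes, by 10.2-fold.

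**Figure D1:**
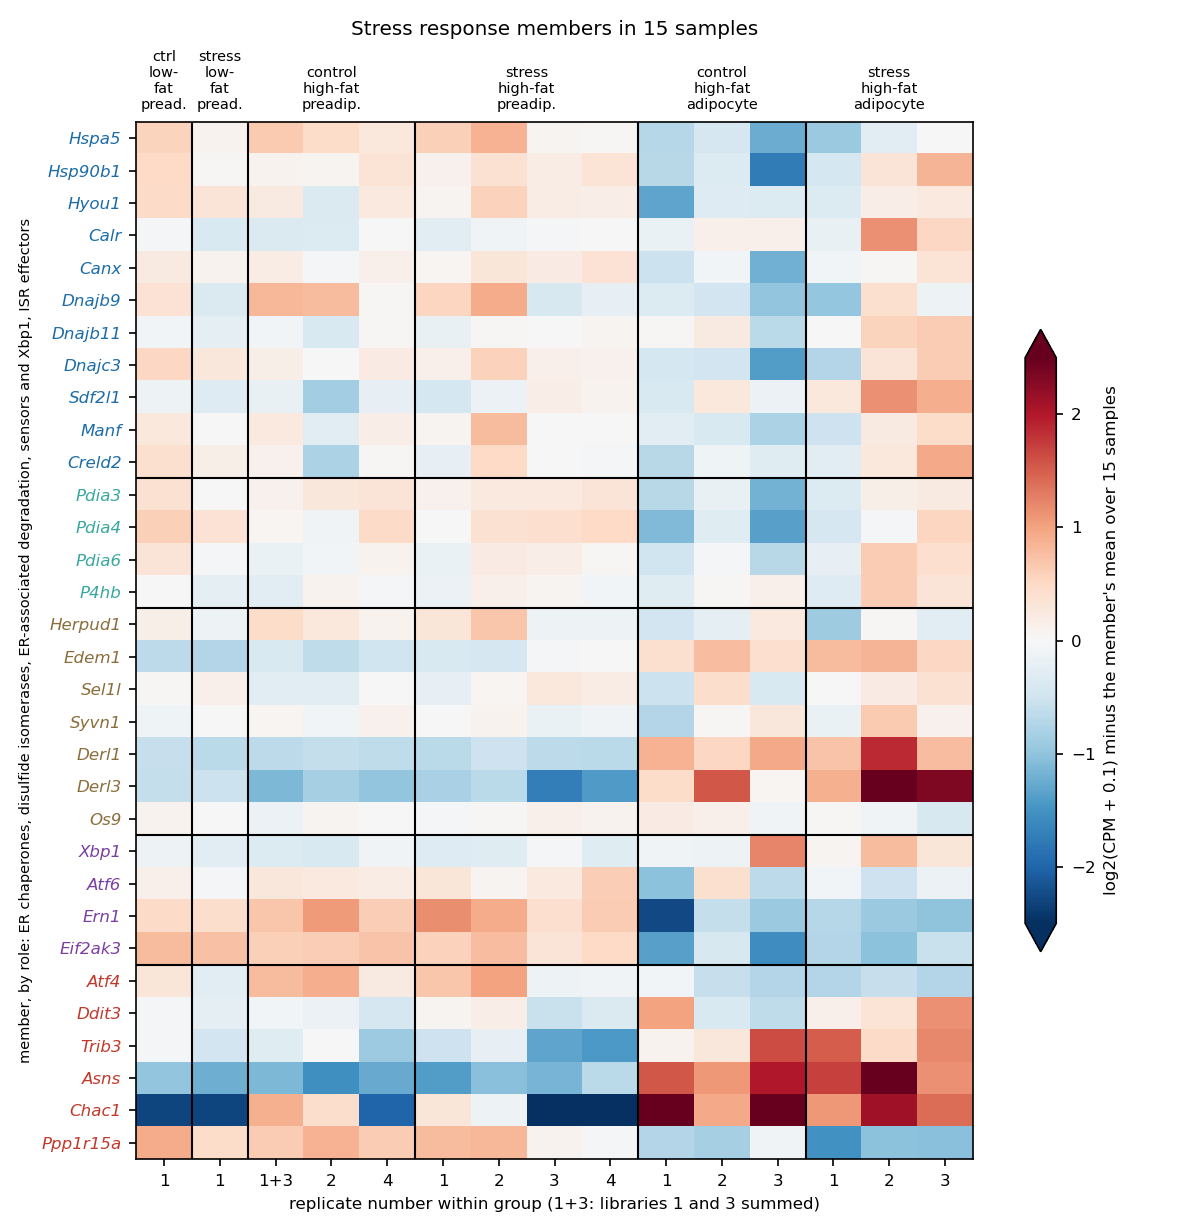
Each row is a member, grouped by role, and each column 1 of the 15 samples; the colour is log2(CPM + 0.1) minus that member's mean over the 15 samples. Asns, Derl1 and Derl3 are red or near white and Ern1, Eif2ak3 and Ppp1r15a blue or near white in the adipocyte columns, while Chac1 is also low in several preadipocyte columns.

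The first comparison set mature adipocytes against preadipocytes on the high-fat diet, 6 samples against 7, with early life treatment in the model. Of the 32 members 8 were higher and 11 lower in adipocytes (edgeR quasi-likelihood test, Benjamini-Hochberg adjusted p below 0.05 over 16679 genes). That is 59.4% of members, against 61.3% of all genes tested, of which 26.4% were higher and 35% lower. The members' share was thus near the background, and the median log2 fold change was -0.09 over members and -0.25 over all genes. By role, 1 of 11 chaperones was higher and 3 lower, 0 of 4 disulfide isomerases higher and 2 lower, 3 of 7 degradation genes higher and 1 lower, 1 of 4 sensors higher and 3 lower, and 3 of 6 effectors higher and 2 lower. No difference between the roles was tested. In 10 of the 32 members the called difference was at least 2-fold, as in 49 of 126 other genes of these pathways, described below. The share of all genes at that size was not counted, so the members' count has no background beside it.

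Among the 11 chaperones 1 was higher and 3 lower, and among the 4 disulfide isomerases 2 were lower. Hspa5 had 1107, 1509.7 and 1997 CPM as the lowest, median and highest preadipocyte sample and 462, 743 and 1084 CPM in adipocytes. The ranges did not overlap, although the nearest samples, 1084 and 1107 CPM, almost met. Hspa5 was lower in adipocytes by a log2 fold change of -1.05 ± 0.22 (SE, adjusted p = 0.000871). Dnajb9, a co-chaperone that hands misfolded protein and IRE1 to BiP, had 103, 199 and 260.2 CPM in preadipocytes and 69.0, 103 and 179.7 CPM in adipocytes. Its ranges overlapped, and its log2 fold change was -0.82 ± 0.28 (adjusted p = 0.0210). Sdf2l1, a BiP cycle component that partners a co-chaperone, was the one higher chaperone, at 20.3, 32 and 59 CPM in adipocytes and 14.5, 23.2 and 29.7 CPM in preadipocytes. Its log2 fold change was 0.57 ± 0.21 (adjusted p = 0.0305), with overlapping ranges. The Dnajb9 call ended without stress preadipocyte 2 (-0.65, adjusted p = 0.0668) and without control adipocyte 3 (-0.65, adjusted p = 0.0683), and was weakest with stress libraries only (-0.37, adjusted p = 0.479). That of Sdf2l1 ended without any one of control preadipocyte 2, control adipocyte 2, stress adipocyte 3 and stress preadipocyte 1, at 0.49 to 0.53 (adjusted p = 0.0587 to 0.0683), and was weakest with control libraries only (0.35, adjusted p = 0.417), against 0.93 with stress libraries only. That of Hspa5 ended only with the stress libraries alone (-0.75, adjusted p = 0.0745).

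Hyou1, the nucleotide exchange factor of BiP, was lower by -0.48 ± 0.20 (adjusted p = 0.0465), a call lost in 16 of 25 alternative analyses and weakest with stress libraries only (-0.17, adjusted p = 0.540). Log2 fold changes of the 7 other chaperones missed the threshold. They were -0.47 ± 0.27 for Hsp90b1, the ER form of HSP90, and -0.47 ± 0.24 for Dnajc3, a BiP co-chaperone. For the lectin chaperones, which hold glycoproteins, they were 0.43 ± 0.21 in Calr and -0.42 ± 0.19 in Canx. Dnajb11 had 0.20 ± 0.18, the secreted ER stress proteins Manf and Creld2 -0.37 ± 0.20 and 0.02 ± 0.23.

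Disulfide isomerases form and shuffle the disulfide bonds of secreted protein. Pdia4 had 120.2, 168 and 180.1 CPM in preadipocytes and 50.2, 99.6 and 187 CPM in adipocytes, a log2 fold change of -0.67 ± 0.23 (adjusted p = 0.0191). Pdia3, which works with Calr and Canx on glycoproteins, had 589, 655 and 690.4 CPM in preadipocytes and 244, 457 and 645 CPM in adipocytes, a log2 fold change of -0.57 ± 0.20 (adjusted p = 0.0200). In both genes the highest adipocyte samples reached into the preadipocyte range. P4hb, which is also a subunit of the collagen prolyl hydroxylase, and Pdia6 had log2 fold changes of 0.10 ± 0.18 and -0.07 ± 0.19 and were not called.
The calls of both isomerases ended without either control adipocyte 1 (-0.45 for Pdia3 and -0.50 for Pdia4) or control adipocyte 3 (-0.37 and -0.47), and without the pair of them, where Pdia3 had a log2 fold change of -0.26 (adjusted p = 0.165) and Pdia4 of -0.31 (adjusted p = 0.200). They were weakest with stress libraries only, at -0.17 for Pdia3 (adjusted p = 0.562) and -0.24 for Pdia4 (adjusted p = 0.482). Dnajb9 was at -0.61 (adjusted p = 0.136) and Hyou1 at -0.25 (adjusted p = 0.245) without them, and Hspa5 stayed called at -0.81. The 16 genes of secreted matrix and collagen handling moved alongside, with 15 lower in adipocytes. Their summed level was 29612 to 65957 CPM in preadipocytes and 9475 to 22168 CPM in adipocytes, and its part in the chaperone differences was not tested.

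Genes of ER-associated degradation were 3 higher and 1 lower of 7. Derl3 and Derl1 encode derlins, membrane proteins of the retrotranslocation channel. Derl3 had 1.24, 2.12 and 2.68 CPM in preadipocytes and 4.46, 10.5 and 45.7 CPM in adipocytes. Derl1 had 112, 115 and 126 CPM in preadipocytes and 258, 315 and 650.5 CPM in adipocytes. For both derlins every adipocyte sample lay above every preadipocyte sample. The log2 fold change was 2.82 ± 0.46 for Derl3 (adjusted p = 0.000113) and 1.60 ± 0.20 for Derl1 (adjusted p = 1.14e-05). For Derl3 it was 1.90 with control libraries only and 3.75 with stress libraries only, both called, and the test of that difference is given with the interaction. Edem1, a mannosidase-like protein that marks glycoproteins for disposal, had 104, 124 and 162 CPM in preadipocytes and 215, 255 and 291 CPM in adipocytes, again without overlap. Its log2 fold change was 0.92 ± 0.15 (adjusted p = 0.000104).

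Herpud1, a scaffold of the degradation complex, was lower by -0.54 ± 0.20 (adjusted p = 0.0255), so it differed in direction from the derlins and Edem1. That call ended without any one of control adipocyte 1, stress adipocyte 1, the summed control preadipocyte sample and stress preadipocyte 2, with Herpud1 at -0.36 to -0.50 (adjusted p = 0.0553 to 0.113). It ended too with control libraries only (-0.39, adjusted p = 0.303) and with stress libraries only (-0.49, adjusted p = 0.190). Sel1l and Syvn1, the adaptor and the ubiquitin ligase at the core of that complex, had log2 fold changes of 0.04 ± 0.17 and 0.03 ± 0.18. Os9, a lectin that delivers glycoproteins to it, had -0.11 ± 0.14. None of the latter 3 was called. Plasma cells, which are known for high Derl3, were checked beside it: their defining transcripts Jchain, Mzb1 and Igkc were lower in adipocytes, Jchain at 1.63 to 5.81 CPM against 7.40 to 42.7 CPM in high-fat preadipocytes. Of the 10 plasma cell markers 6 were lower and 1, Ighm, was higher, at a log2 fold change of 1.56. Their sum was 246 to 1029.9 CPM in preadipocytes and 563 to 1466 CPM in adipocytes, and its part in the Derl3 difference was not tested.

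All 4 sensors and transcription factors differed, 3 of them lower. Ern1 had 50.5, 61.3 and 85.1 CPM in preadipocytes and 7.87, 19.8 and 25.0 CPM in adipocytes. Eif2ak3 had 45.5, 54.7 and 62.2 CPM in preadipocytes and 12.3, 19.8 and 27.3 CPM in adipocytes. For both kinases every adipocyte sample was below every preadipocyte sample. The log2 fold change was -1.86 ± 0.23 for Ern1 (adjusted p = 8.25e-06) and -1.53 ± 0.19 for Eif2ak3 (adjusted p = 8.29e-06).

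Atf6 had 84.7, 95.9 and 125 CPM in preadipocytes and 39.9, 64.9 and 107 CPM in adipocytes, a log2 fold change of -0.62 ± 0.21 (adjusted p = 0.0172). The groups overlapped through control adipocyte sample 2, at 107 CPM. Its call ended without any one of control adipocyte 1 (-0.42, adjusted p = 0.0581), control adipocyte 3 (-0.47, adjusted p = 0.0642) and stress adipocyte 2 (-0.47, adjusted p = 0.0774). Atf6 was at -0.31 (adjusted p = 0.133) without both of those controls, and at -0.51 (adjusted p = 0.291) with control libraries only, in 7 lost calls among 25 alternatives. Xbp1, whose mRNA is the substrate of IRE1, went the other way, with 139, 146 and 175 CPM in preadipocytes and 165, 205 and 419 CPM in adipocytes. Its log2 fold change was 0.63 ± 0.22 (adjusted p = 0.0204), and the highest sample was control adipocyte sample 3. The Xbp1 ranges of the 2 fractions overlapped. Its call was lost in 3 of 25 alternatives, over which the estimate ran from 0.47 to 0.80. With control libraries only, where the call was lost, the Xbp1 estimate was 0.76 (adjusted p = 0.152).

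Of the 6 effectors of the integrated stress response 3 were higher, 2 lower and 1 not called. Atf4, the transcription factor of the arm, had 300.4, 533 and 665 CPM in preadipocytes and 198, 209.7 and 315 CPM in adipocytes. Only control adipocyte sample 1, at 315 CPM, reached the preadipocyte range. Its log2 fold change was -1.17 ± 0.22 (adjusted p = 0.000318). Ppp1r15a, the inducible phosphatase subunit (GADD34) that restores translation by dephosphorylating eIF2, had 294, 471 and 550.5 CPM in preadipocytes and 106, 158 and 283 CPM in adipocytes. Its groups did not overlap and its log2 fold change was -1.51 ± 0.20 (adjusted p = 1.82e-05).

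The 3 effectors that were higher are the same 3 that carry CARE in their windows. Asns, asparagine synthetase and a standard readout of amino acid shortage, had 9.90, 12.9 and 18.2 CPM in preadipocytes and 61.6, 90.1 and 218 CPM in adipocytes. Trib3, a pseudokinase that restrains AKT and ATF4, had 2.43, 4.74 and 6.82 CPM in preadipocytes and 7.21, 12.6 and 21.1 CPM in adipocytes. Chac1, which degrades glutathione, had 0.296, 6.09 and 12.5 CPM in preadipocytes and 12.9, 23.4 and 75.6 CPM in adipocytes. In all 3 genes the groups did not overlap, although for Trib3 and Chac1 the nearest samples were close. The log2 fold change was 2.99 ± 0.28 for Asns (adjusted p = 6.52e-07), 1.52 ± 0.32 for Trib3 (adjusted p = 0.000895) and 2.52 ± 0.66 for Chac1 (adjusted p = 0.00428).

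Ddit3, which encodes the transcription factor CHOP, had 15.6, 21 and 25.8 CPM in preadipocytes and 14.9, 27.1 and 51.2 CPM in adipocytes. Its log2 fold change, 0.53 ± 0.27, missed the threshold (adjusted p = 0.104), although Ddit3 was called in 2 of 25 alternatives. Herpud1 also carries CARE and was lower, so the element and the direction did not go together in every member. The Chac1 call ended without control adipocyte libraries 1 and 3, at a log2 fold change of 1.99 (adjusted p = 0.0554), and the Trib3 call ended with control libraries only, at 1.21 (adjusted p = 0.0923).

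Without overlap between the fractions, 6 members lay above and 4 below. They were Edem1, Derl1, Derl3, Trib3, Asns and Chac1 above, and Hspa5, Ern1, Eif2ak3 and Ppp1r15a below. Over all genes tested 18.8% lay entirely above and 20.4% entirely below. Immediate early genes, which tissue digestion is known to induce, moved alongside, with 15 of 18 lower in adipocytes and 1 higher. Their summed level was 13178 to 21954 CPM in high-fat preadipocytes and 5696 to 8378 CPM in adipocytes. Mesothelial markers were lower, 8 of 8, and endothelial markers were higher, 8 of 10, with 1 lower. The part of handling and of these cell types in the members' differences was not tested.

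**Figure D2:**
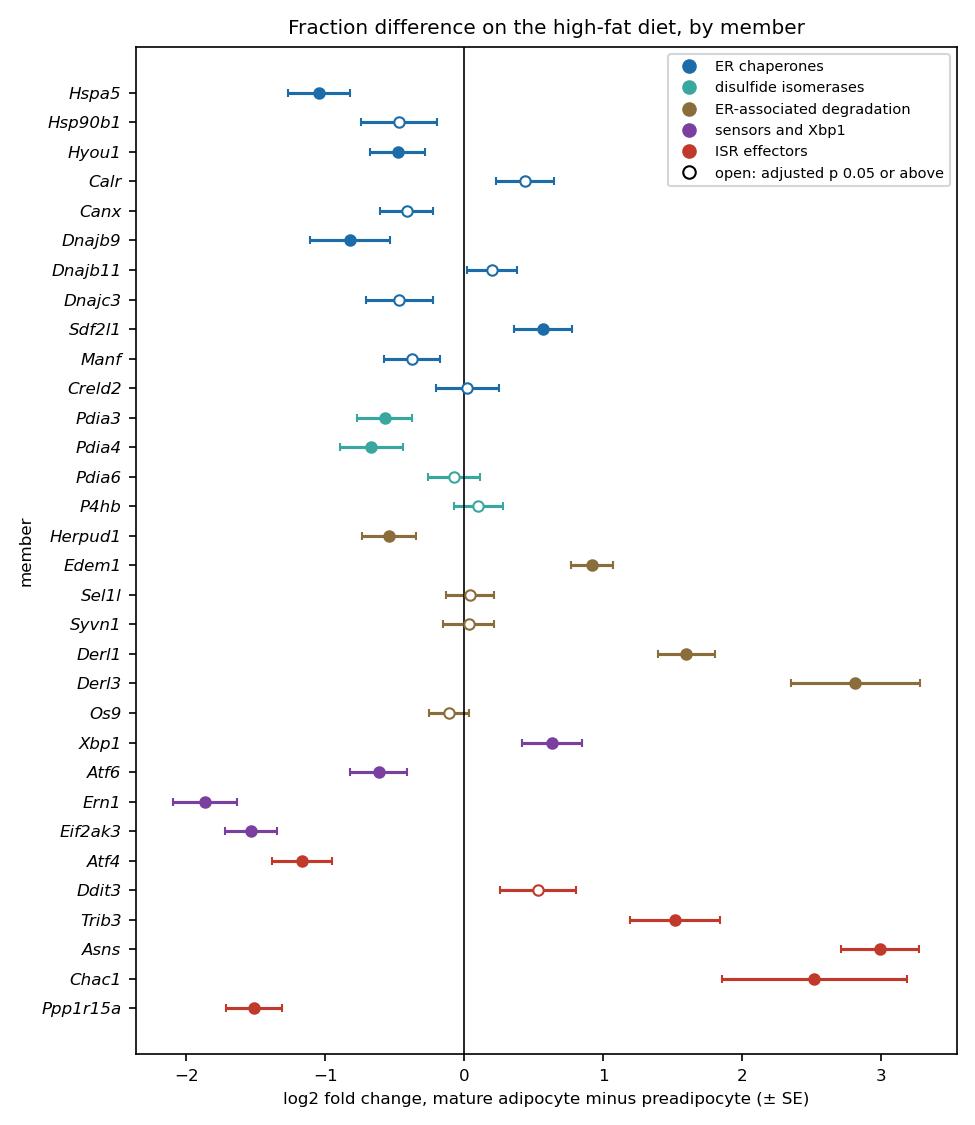
Each point is a member's log2 fold change, mature adipocyte minus preadipocyte on the high-fat diet, with its SE as the bar; colours mark the 5 roles and open points missed an adjusted p of 0.05. The values run from -1.86 in Ern1 to 2.99 in Asns, and the 11 chaperones lie between -1.05 and 0.57.

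**Figure D3:**
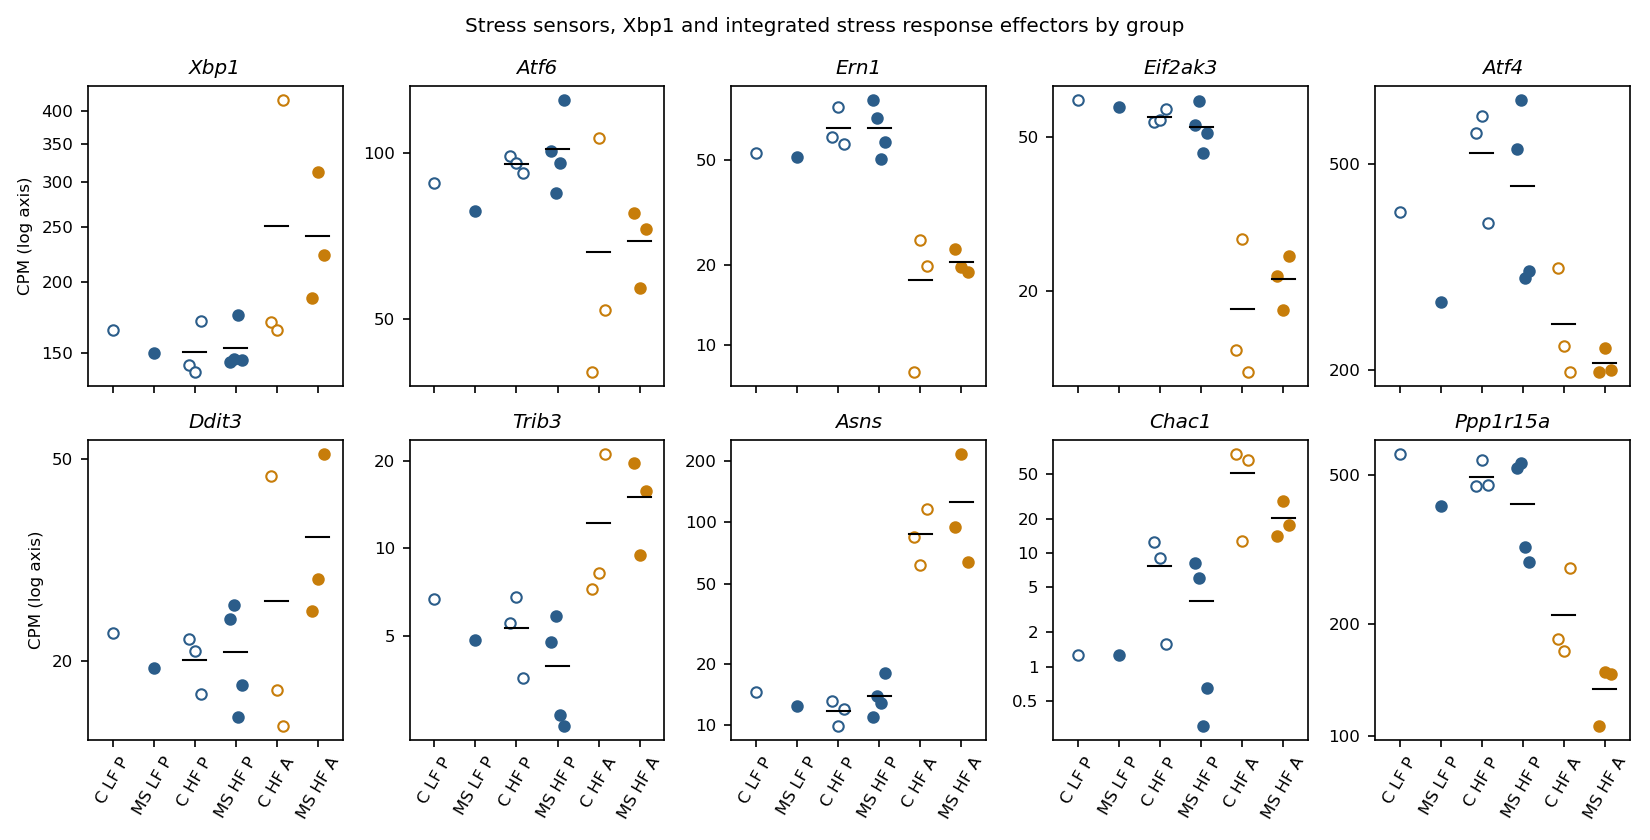
Each dot is 1 sample's CPM on a log axis and each line a group mean, for the 4 sensors and transcription factors and the 6 effectors; C is control, MS early life stress, HF and LF high- and low-fat diet, P preadipocyte (blue) and A adipocyte (orange), with open dots for controls. Asns lies at 9.90 to 18.2 CPM in high-fat preadipocytes and at 61.6 to 218 CPM in adipocytes, while Chac1 spreads widely within both fractions.

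Other genes of the same pathways were read from 8 lists, 126 genes in all, of which 46 were higher and 39 lower in adipocytes. That is 67.5% called, against 61.3% of all genes, of which 26.4% were higher and 35% lower. Of 16 genes of protein entry into the ER 6 were higher and 5 lower (median 0.11), led by Ssr4 of the translocon-associated complex at 1.07 ± 0.17, Sec61b of the channel at 0.88 ± 0.18 and the signal peptidase subunit Spcs1 at 0.88 ± 0.17. Of 20 further ER folding genes 3 were higher and 9 lower (median -0.26), led by the KDEL receptor Kdelr3 at -2.49 ± 0.33, the collagen prolyl isomerase Fkbp14 at -2.11 ± 0.22 and the disulfide isomerase Txndc5 at -1.80 ± 0.17. All 3 estimates were larger in size than that of Hspa5, the largest among the member chaperones. Of 20 further degradation genes 8 were higher and 3 lower (median 0.29), led by the ubiquitin ligase Rnf5 at 1.65 ± 0.25, the p97 cofactor Nploc4 at 1.56 ± 0.19 and Edem3 at -1.27 ± 0.23. The degradation list thus had more higher than lower genes, and the folding list the reverse, as did the members of these roles. More lower than higher was also the background, at 35% against 26.4% of all genes. No difference between the lists, or from that background, was tested.

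Of 17 further regulators and death effectors of the unfolded protein response 2 were higher and 9 lower (median -0.50), led by the ATF6 relatives Creb3l3 at -2.34 ± 0.67 and Creb3l1 at -1.70 ± 0.26 and the pro-apoptotic Bcl2l11 at -1.35 ± 0.24. Of 12 eIF2 kinases, phosphatase and exchange factor genes 7 were higher and 4 lower (median 0.65), led by the exchange factor subunits Eif2b3 at 1.92 ± 0.23 and Eif2b5 at 1.91 ± 0.19 and by Impact, an inhibitor of the kinase GCN2, at -1.83 ± 0.23. Of 16 amino acid synthesis and transport genes known as ATF4 targets 6 were higher and 7 lower (median 0.01). They were led by the serine synthesis enzyme Phgdh at 4.84 ± 0.44, the transporter Slc7a3 at -3.56 ± 0.82 and the cysteine synthesis enzyme Cth at 3.55 ± 0.64. The Slc7a3 value rests on 0 to 5 reads per adipocyte sample and 7 to 35 reads per high-fat preadipocyte sample.

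Aminoacyl tRNA synthetases, which load amino acids onto tRNA, were 8 higher and 0 lower of 12 (median 0.67), led by Sars at 1.66 ± 0.17, Wars at 1.52 ± 0.20 and Gars at 1.43 ± 0.17. Of 13 other targets of the integrated stress response 6 were higher and 2 lower (median 0.50). These were led by the translation repressor Eif4ebp1 at 3.42 ± 0.30, the hormone Fgf21 at 2.38 ± 0.46 and the transcription factor Atf5 at 1.39 ± 0.30. Atf4 itself was lower in adipocytes, while some genes known as ATF4 targets were higher and others lower.

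The second comparison set early life stress against control within high-fat preadipocytes, 4 samples against 3. No member was called, and neither was any of the 17129 genes tested (0%, edgeR). At an unadjusted p below 0.05 there were 496 genes (2.9%) and 0 members, and DESeq2 called 4 genes, no member among them. The log2 fold change was positive in 22 of 32 members, with a median of 0.12, against 53% positive over all genes. The groups overlapped in all 32 members, whereas 1.28% of genes lay entirely above and 2.31% entirely below.

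Chac1 had the estimate farthest from 0, followed by Trib3 at -0.41 ± 0.37. Chac1 had 12.5, 9.06 and 1.59 CPM in controls and 8.23, 6.09, 0.296 and 0.652 CPM after stress, a log2 fold change of -1.02 ± 1.08, and its lowest values rest on 6 and 15 reads. Atf4 had 573, 617 and 384 CPM in controls and 533, 665, 300.4 and 311 CPM after stress, or -0.19 ± 0.30. Ppp1r15a had 469, 550.5 and 471 CPM in controls and 522, 539, 321 and 294 CPM after stress, or -0.22 ± 0.23. In these genes stress samples 3 and 4 were the 2 lowest of the 7, while stress samples 1 and 2 lay within or above the controls. Trib3 had 5.51, 6.82 and 3.58 CPM in controls and 4.74, 5.86, 2.67 and 2.43 CPM after stress, with the same 2 samples lowest. Asns had 13.2, 9.90 and 12.1 CPM in controls and 11, 13.9, 12.9 and 18.2 CPM after stress, and here sample 4 was highest.

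Stress samples 3 and 4 also held the most macrophage transcript, 7487 and 8708 CPM summed over 10 markers, against 1486 to 4232 CPM in the other 5. They held the least of the 8 mesothelial markers, 164 and 131 CPM, against 231 to 1311 CPM. Over all 7 samples the stress estimate was negative in 10 of 10 endothelial, 8 of 8 B cell and 5 of 5 erythroid markers, with medians of -1.16, -1.09 and -0.88, and positive in 10 of 10 macrophage markers, with a median of 0.78. The part of any of these in the members' levels was not tested. Ddit3 had 22.1, 21 and 17.2 CPM in controls and 24.3, 25.8, 15.6 and 18.0 CPM after stress, which overlapped throughout.

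The sensors overlapped between the groups too. Ern1 had 61.3, 79.8 and 57.8 CPM in controls and 85.1, 72.2, 50.5 and 58.9 CPM after stress. Eif2ak3 had 54.7, 55.5 and 59.1 CPM in controls and 53.9, 62.2, 45.5 and 51.2 CPM after stress. Atf6 had 99.0, 95.9 and 92.2 CPM in controls and 101, 84.7, 95.9 and 125 CPM after stress. In each, the stress samples spanned the control range. Xbp1 had 143, 139 and 171 CPM in controls and 145, 147, 175 and 146 CPM after stress. The log2 fold changes of these 4 genes lay between -0.05 and 0.14.

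The third comparison set early life stress against control within high-fat adipocytes, 3 samples against 3. No member was called and neither was any of 14485 genes (0%, edgeR). At an unadjusted p below 0.05 there were 417 genes (2.88%) and 5 members, and DESeq2 called 9 genes, no member among them. The log2 fold change was positive in 26 of 32 members, with a median of 0.38, whereas 49.2% of all genes were positive, with a median of -0.01. All 15 chaperones and disulfide isomerases had a positive estimate, from 0.27 to 1.12 with a median of 0.61, and 3 of the 15 had an unadjusted p below 0.05. Summed chaperones had 2454, 3030 and 2103 CPM in controls and 2489, 4658 and 4512 CPM after stress. Summed isomerases had 1199, 1612 and 1296 CPM in controls and 1362, 2308 and 2138 CPM after stress. In both sums stress sample 1 lay within the control range, and stress samples 2 and 3 lay above it. The estimates come from the same 6 samples and are not independent of each other. Other lists leaned one way in the same samples, with no gene called. Cytosolic and mitochondrial heat shock genes were positive in 9 of 12 (median 0.25). Erythroid markers were positive in 5 of 5 (median 0.72), with a sum of 417 to 525.6 CPM in controls and 420.1 to 1383 CPM after stress. Progenitor markers were negative in 8 of 10 (median -0.61), with 529 to 1167 and 550.1 to 846 CPM. Macrophage markers were negative in 9 of 10 (median -0.41), with 2182 to 7880 and 1786 to 5174 CPM. Mesothelial markers were negative in 5 of 8 (median -1.24), with 38.6 to 167 and 37.2 to 51.1 CPM. In that list the keratins Krt18, Krt8 and Krt19 and Upk1b had log2 fold changes of -3.82, -2.94, -1.98 and -2.5 at unadjusted p = 0.00572 to 0.0187 from edgeR. Upk3b had -0.51, whereas Msln, Wt1 and Lrrn4 were positive, at 0.14, 0.05 and 0.94. The mesothelial markers thus did not move together. The part of these cell types in the members' estimates was not tested.

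Hsp90b1 had 285, 366 and 138 CPM in controls and 342, 578 and 837 CPM after stress, a log2 fold change of 1.12 ± 0.45 (adjusted p = 0.9996). Sdf2l1 had 20.3, 31.9 and 23.9 CPM in controls and 32.1, 59.0 and 49.7 CPM after stress, or 0.85 ± 0.35. Pdia4 had 59.8, 104 and 50.2 CPM in controls and 95.5, 123 and 187 CPM after stress, or 0.89 ± 0.39. Sdf2l1 was the one member whose stress samples all lay above the controls (nearest samples 31.9 and 32.1 CPM), as 4.27% of all genes did. In Hsp90b1 and Pdia4 control sample 2 overlapped the stress range, and control sample 3, the library with the fewest genes detected, was lowest.

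Derl3 had 6.01, 12.9 and 4.46 CPM in controls and 8.09, 45.7 and 22.1 CPM after stress, a log2 fold change of 1.66 ± 0.62. Chac1 went the other way, with 75.6, 12.9 and 66.2 CPM in controls and 14.3, 29.2 and 17.6 CPM after stress, or -1.38 ± 0.58. Both had an adjusted p of 0.9996. For Chac1 the 2 high controls were libraries 1 and 3, and control 2 was below every stress sample. Without control replicate 3, 0 members had an unadjusted p below 0.05 (edgeR), beside 260 of 15143 genes. Without control replicate 2 there were 8 members, beside 1481 of 15047 genes. The count over all genes thus moved in the same direction.

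Ppp1r15a had 181, 169 and 283 CPM in controls and 106, 148 and 146 CPM after stress, a log2 fold change of -0.70 ± 0.34. It was the one member whose stress samples all lay below the controls, as 2.88% of genes did. Atf4 had 315, 222 and 198 CPM in controls and 198, 220.2 and 199 CPM after stress, with overlap. Trib3 had 7.21, 8.23 and 21.1 CPM in controls and 19.6, 9.47 and 15.8 CPM after stress. Asns had 84.9, 61.6 and 117 CPM in controls and 95.4, 218 and 63.9 CPM after stress. Ddit3 had 46.3, 17.6 and 14.9 CPM in controls and 25.2, 29.1 and 51.2 CPM after stress. In each of these effectors at least 1 control lay above a stress sample.

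Among the sensors, Ern1 had 7.87, 25.0 and 19.9 CPM in control adipocytes and 23, 19.8 and 18.9 CPM after stress. Eif2ak3 had 14, 27.3 and 12.3 CPM in controls and 21.8, 17.8 and 24.6 CPM after stress. Atf6 had 39.9, 107 and 51.8 CPM in controls and 77.8, 56.8 and 72.9 CPM after stress. Xbp1 had 170.0, 165 and 419 CPM in controls and 188, 313 and 223 CPM after stress. For all 4 the controls spread more widely than the stress samples and enclosed or overlapped them, and the log2 fold changes lay between -0.10 and 0.22.

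The difference between the fractions in the stress effect was tested as an interaction over 17948 genes. No member and no gene was called (0%, edgeR), and DESeq2 called 3 genes, no member among them. At an unadjusted p below 0.05 there were 873 genes (4.86%) and 1 member, Derl3, at 1.75 ± 0.76 (adjusted p = 0.934). The estimate was positive in all 15 chaperones and disulfide isomerases, from 0.19 to 1.02 with a median of 0.45, against 50.4% of all genes. Over 23 alternatives 14 or 15 of these 15 were positive, with the lowest at -0.02 without stress adipocyte 2. Cytosolic and mitochondrial heat shock genes, which act outside the ER, were positive in 11 of 12 (median 0.32), none called. Some marker lists of other cell types were as uniform and farther from 0: endothelial 10 of 10 positive (median 1.47), B cell 8 of 8 (2.85), erythroid 5 of 5 (1.53) and macrophage 0 of 10 (-1.21), none called. The other marker lists were mixed. Positive estimates there were 6 of 10 for plasma cell, 6 of 8 for T and NK cell, 4 of 8 for mesothelial and 5 of 8 for mural markers. They were 4 of 10 for adipocyte and 3 of 10 for progenitor markers. The part of these cell types in the members' interaction estimates was not tested. The effect of stress on the members was therefore not shown to differ between adipocytes and preadipocytes.

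**Figure D4:**
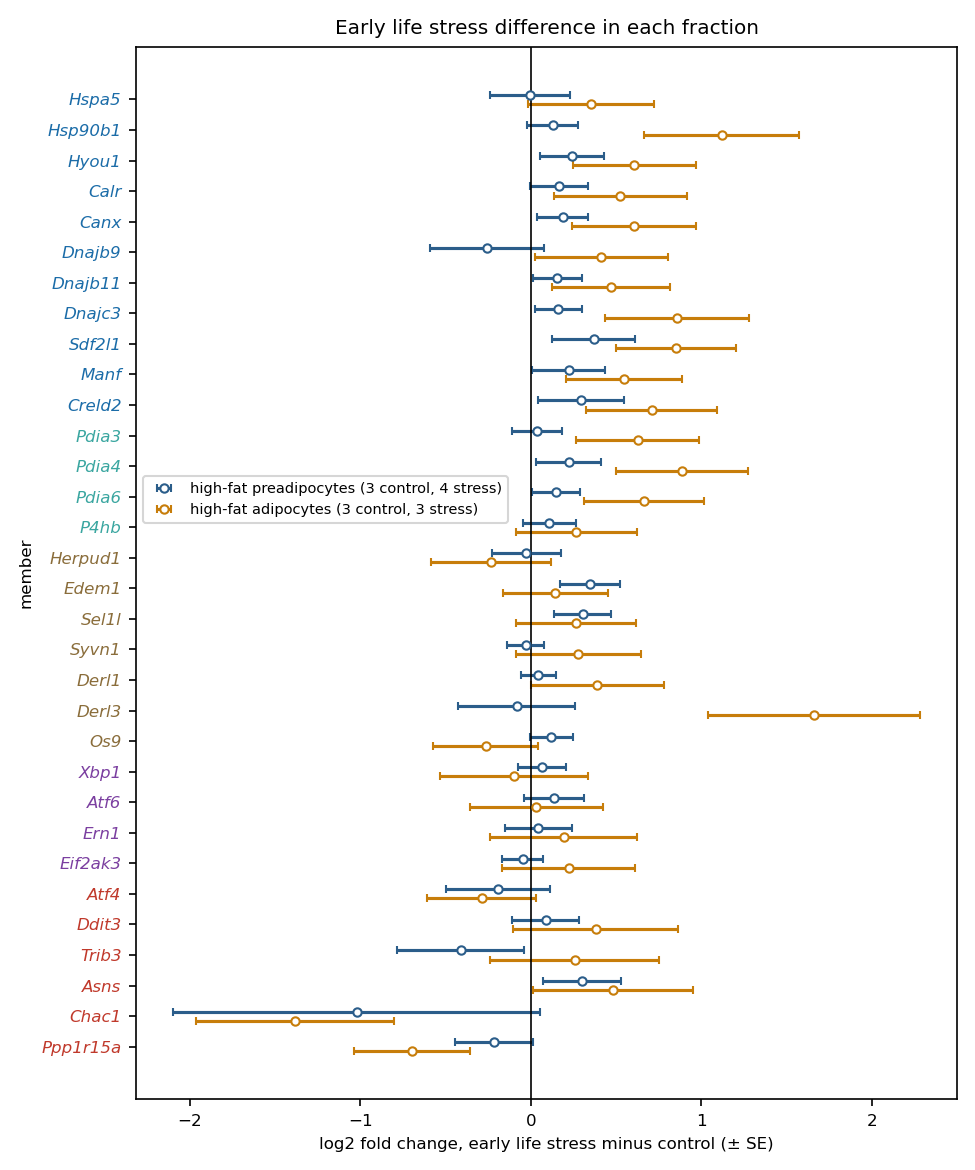
For each member the log2 fold change, early life stress minus control, is drawn with its SE for high-fat preadipocytes (blue) and high-fat adipocytes (orange); all points are open because no member was called. In adipocytes the chaperones and isomerases lie from 0.27 to 1.12, and Chac1 and Ppp1r15a lie at -1.38 and -0.70.

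The pathway lists showed 0 genes called in both stress comparisons. In adipocytes the list medians of the log2 fold change were 0.20 for ER entry, 0.03 for further folding genes, 0.09 for further degradation genes, 0.07 for the genes around eIF2, 0.23 for tRNA synthetases, -0.17 for further regulators of the unfolded protein response, of which 13 of 17 were negative, -0.22 for amino acid genes and -0.28 for other stress targets. In preadipocytes they lay between -0.06 and 0.12 over all 8 lists.

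Diet was compared in preadipocytes only, 7 high-fat samples against the 2 low-fat ones, with early life treatment in the model. No member was called and neither was any of 18468 genes (0%, edgeR). At an unadjusted p below 0.05 there were 2360 genes (12.8%) and 0 members, and DESeq2 called 422 genes, no member among them. The log2 fold change, high-fat minus low-fat, was positive in 17 of 32 members with a median of 0.02. The largest estimates were 2.05 ± 1.28 in Chac1, which had 1.28 CPM in the low-fat control and 1.27 CPM in the low-fat stress sample, and 0.57 ± 0.31 in Atf4, which had 404 and 271 CPM there. Both low-fat Chac1 values lay within the high-fat range, as did the control's Atf4 value. The low-fat stress sample had less Atf4 than any high-fat preadipocyte sample.

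Ern1 had 53.1 and 51.6 CPM in the low-fat control and stress samples, Eif2ak3 62.6 and 59.8, Atf6 88.2 and 78.6 and Xbp1 165 and 150.4. Trib3 had 6.66 and 4.84 CPM, Asns 14.6 and 12.4, Ddit3 22.7 and 19.4 and Ppp1r15a 572 and 415. Leaving out 1 of the 2 low-fat samples moved the members' median from -0.13, without the stress sample, to 0.20, without the control.

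In low-fat preadipocytes there was 1 library for each early life group, so the difference has no replicate check. Against the control, 29 of 32 members were lower in the stress library by the log2 ratio of CPM, with a median of -0.22 and none at 2-fold. Over the 9511 genes with at least 10 CPM the median was -0.05, and 228 differed by 2-fold or more. The share of those genes that were lower was not counted. Derl3, Trib3 and Chac1 were below 10 CPM in both libraries and so lie outside that background. The largest ratios were -0.73 in Dnajb9, -0.58 in Atf4, -0.46 in Ppp1r15a and -0.46 in Hsp90b1. The high-fat samples gave 22 of 32 positive, and the difference between the diets was not tested.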

How the data were processed

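Raw read counts per gene and FPKM were deposited by the authors for 16 libraries; STAR 2.6.1d, DESeq2 1.20.0, edgeR 3.24.3 and the builds mm10 and GRCm38 are named, without roles, in the submitters' processing notes. The counting tool and its strand setting are not stated there. Deposited FPKM equalled the counts over gene length and library total, multiplied by a constant for each library. Up to a common factor, that constant was the library total divided by a DESeq2-type size factor. The deposited FPKM were thus scaled by size factor in place of library total. Counts were fitted with edgeR 4.0.16 (TMM, filterByExpr, robust quasi-likelihood, Benjamini-Hochberg threshold 0.05 over all genes tested) in R 4.3.3, after a test on simulated data. Alternatives used DESeq2 1.42.0, other scaling and filters, and limma 3.58.1 on log2(FPKM + 1) and log2(FPKM + 0.1). The members and all gene lists were chosen with earlier results of these data known. A member was given by sample where called and among the 3 largest of its role, or where a sensor or effector; pathway lists name up to 3 called genes. Low-fat ratios used a prior count of 2. Gene coordinates are the deposited file's, and promoter windows are RefSeq's (GRCm38.p6).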

Additional observations from a re-analysis of the deposited data

Results flagged for a closer look

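Among high-fat preadipocytes after early life stress, the one group of 4 samples, each member's highest and lowest sample were set against the gap expected of a single outlying value, 32 members in all, and 3 stood out. Dnajc3 had 248 CPM in sample 2, against 179 to 183 CPM in the other 3. Manf had 115 CPM in the same sample, against 66.8 to 69.3 CPM. Xbp1 had 175 CPM in sample 3, against 145 to 147 CPM. About 1 in 20 such groups is marked by chance.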

How the results depend on the processing

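Of the 19 members called between the fractions, 8 were called in all 25 alternatives (Edem1, Derl1, Derl3, Ern1, Eif2ak3, Atf4, Asns and Ppp1r15a), 11 lost the call in at least 1, and 0 reversed. With control libraries only, 12 of 32 members were called, 5 higher and 7 lower, beside 5998 of 16315 genes. With stress libraries only 13 were called, 9 higher and 4 lower, beside 8201 of 16489 genes. Without control adipocyte libraries 1 and 3, 15 were called, 9 higher and 6 lower, beside 10305 of 17698 genes. The main analysis called 10231 of 16679 genes. Leaving out 1 sample gave 15 to 21 members called, 7 to 10 higher and 6 to 14 lower, with 6 lower without control adipocyte 1 or 3. Over all genes these fits called 9710 to 10663. In the stress, interaction and diet comparisons 0 members were called in every alternative. Over all genes, calls moved from 0 to 4 (DESeq2) and 2 (replicate block) for stress in preadipocytes, to 9 (DESeq2), 51 (no filter) and 9 (without control replicate 2) for stress in adipocytes, to 3 (DESeq2) for the interaction, and to 422 (DESeq2), 2 (replicate block), and 1 each (no filter, limma with 0.1, without control high-fat replicate 4) for diet. Correlations of same-numbered samples' deviations were -0.19 to 0.14 between fractions, -0.25 to 0.03 between early life groups in adipocytes and -0.06 to 0.33 in preadipocytes, where 3 of 4 pairs were over 0.1 and the one below involves control library 3, the near copy of library 1. Since not every pair was over 0.1, the numbers were not taken to pair samples. With the replicate block 16 members were called between the fractions, 8 higher and 8 lower, beside 10664 of 20809 genes. The low-fat median was -0.22 with a prior count of 0.5 too. The 15 positive estimates of chaperones and isomerases in stressed adipocytes stayed positive in all 14 alternatives. The estimates without stress preadipocytes 3 and 4 were chosen after seeing the data. They called 16 members between the fractions, beside 10253 of 17628 genes, and 0 members elsewhere. The causes of these moves were not tested. With 3 or 4 samples a group the stress comparisons resolved little. In adipocytes the members' SEs were 0.31 to 0.62. Log2 fold changes of 1.12 ± 0.45 in Hsp90b1 and 1.66 ± 0.62 in Derl3 were not called there (adjusted p = 0.9996 for both, edgeR). The lack of calls therefore says little about differences of that size.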
